A study of Mus musculus with 2 samples.

Results

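Zfp608 and Zfp609 are 2 of the 21668 mouse protein-coding genes to which sites of open chromatin were assigned in the embryonic face. The genes were chosen by measured values of the same libraries, their numbers of distal sites seen in both, so that all counts below describe them and none is tested. A site belonged to a gene when its midpoint lay nearest to a protein-coding transcription start of that gene. By this rule 318 of 209299 peaks of replicate 1 and 308 of 219061 peaks of replicate 2 were theirs. Zfp608 held 300 and 292 of these, and Zfp609 held 18 and 16.

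Zfp608 and Zfp609 are paralogues that encode large nuclear zinc finger proteins. Zfp609 has been described in neural progenitors as a chromatin partner of the Integrator complex, which processes and terminates transcripts, and of Nipbl, which loads cohesin onto DNA. Zfp608 was described in developing T cells as a repressor of the recombinase genes Rag1 and Rag2. A gene whose expression is tuned to particular tissues often has many distal enhancers in a wide stretch without other coding genes, whereas broadly active genes often start in a CpG island with few distal sites.

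DNase-seq, which maps DNA that the nuclease DNase I can reach in nuclei, was performed on facial prominences, the outgrowths that build the face, of healthy B6NCrl embryos at 11.5 days. The data are 1 group of 2 libraries, biological replicates 1 and 2, from separate samples of pooled male and female embryos that carry the same donor label. The tissue was bulk, so that a site open in few cells and a site weakly open in many cannot be told apart. The depth of either library is unknown, since no totals of reads were used here.

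A peak is a 150 bp site, and strength is the value the authors gave it. Strength was a whole number with a median of 16 in replicate 1 and 42 in replicate 2 over all peaks, so that it was read within each library and not as a level between them. A peak of replicate 1 counted as shared when a peak of replicate 2 covered at least 75 bp of it. Promoter peaks had their midpoint within 1 kb of a start and distal peaks lay farther away. Over all genes, 41.1% of replicate 1 peaks and 38.5% of replicate 2 peaks had such a match. Lists of marker genes were chosen with earlier results of these data known, so that they describe the libraries and do not check the tissue label. All 6 facial mesenchyme markers (Prrx1, Twist1, Msx1, Alx4, Dlx5 and Tfap2a) had a shared promoter peak. So did 3 of 4 ectoderm markers (Epcam, Grhl2 and Cdh1, not Krt5), against 61.1% of all genes. The erythroid genes Hba-a1 and Gata1 had no peak at all within 1 kb. The endothelial genes Pecam1 and Cdh5 had 0 shared promoter peaks and 9 and 22 shared distal peaks, and the other lists (macrophage, muscle and liver) had a shared promoter peak at Cd68 and Myod1 only.

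The starts of the 2 genes differed in base composition. Zfp609 (ENSMUSG00000040524.9) lies on the minus strand of chromosome 9 in build mm10, from 65692391 to 65827564, with its coding start at 65827564. The 1 kb around that start had a GC content of 69.4% and 102 CpG dinucleotides, an observed to expected CpG ratio of 0.896. Zfp608 (ENSMUSG00000052713.9) lies on the minus strand of chromosome 18, from 54888048 to 54992555, and its coding transcripts start at 54990166. The 1 kb around this start had a GC content of 44.9% and 17 CpG dinucleotides, a ratio of 0.360. Both genes had 2 shared promoter peaks, out of 2 promoter peaks in replicate 1 and 5 in replicate 2 at Zfp608, and out of 4 and 3 at Zfp609. Over all genes 64.2% of the promoter peaks of replicate 1 and 58.3% of those of replicate 2 were shared.

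At Zfp609 the strongest element lay just upstream of the start, at chr9:65827716-65827865 in the intergenic stretch before Trip4. Its strength was 87 in replicate 1 and 126 in replicate 2, within the top 3.33% and 2.95% of each list. The other shared promoter peak, at chr9:65826756-65826905 in the first part of the gene, 733 bp downstream of the start and intronic, had strengths of 53 and 83. The libraries agreed on the exact edges of this second peak. Between these 2 elements, replicate 1 had peaks 193 bp and 433 bp downstream, of strength 45 and 47. Replicate 2 had there a single peak of strength 87, at 313 bp, that overlapped each of them by 30 bp and so matched neither. A single hotspot, the authors' wider enriched region, spanned the whole start: 2265 bp long in replicate 1 and 2277 bp in replicate 2, within the longest 0.621% and 0.644% of all hotspots.

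The sequences of both promoter elements, and of the one shared distal element of Zfp609 that lies in an intron, are shown because they are 3 of the gene's 4 shared sites and differ in base composition. They were read from the RefSeq sequence of GRCm38.p6, the same build as mm10, on the minus strand, which is the strand of the gene, 5′ to 3′. Capitals mark matches to the 14 short motifs listed further below.
Upstream promoter element, chr9:65827716-65827865: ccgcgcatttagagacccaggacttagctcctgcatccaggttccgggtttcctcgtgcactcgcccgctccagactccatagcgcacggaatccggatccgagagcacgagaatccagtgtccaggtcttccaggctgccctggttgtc
Intronic promoter element, chr9:65826756-65826905: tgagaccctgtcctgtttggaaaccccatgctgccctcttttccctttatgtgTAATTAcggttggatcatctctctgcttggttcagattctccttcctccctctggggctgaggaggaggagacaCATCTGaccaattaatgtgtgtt
Distal element in a Trip4 intron, chr9:65850336-65850485: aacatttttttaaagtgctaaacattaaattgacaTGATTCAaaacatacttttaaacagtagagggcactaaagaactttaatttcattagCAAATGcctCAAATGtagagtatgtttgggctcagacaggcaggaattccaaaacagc
The upstream element had a GC content of 60.7% with 11 CpG dinucleotides and held none of the motifs searched. The intronic element had 48.7% GC and 1 CpG, and its capitals are the homeodomain core TAATTA and 1 E-box, the core bound by basic helix-loop-helix proteins. The distal element had 32.7% GC and 0 CpG, and its capitals are 1 AP-1 type match, the kind of site bound by Fos and Jun, and 2 E-boxes.

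The start of Zfp608 looked different. The shared promoter peaks lay 75 bp downstream of the coding start, over the first exon, with strengths of 39 and 79, and 485 bp upstream, with strengths of 62 and 90. Replicate 2 had 3 more promoter peaks without a match, at 855 bp and 455 bp downstream (strength 23 and 49) and 205 bp upstream (strength 73). The hotspot over the start was 640 bp long in replicate 1 and 676 bp in replicate 2. It ended at 54990226 in both libraries. In replicate 1 a hotspot of 3431 bp, from 54990239 to 54993669, began almost at that end, so that enrichment there was nearly continuous. The wide upstream hotspot of replicate 2, of 1714 bp from 54991779 to 54993492, began farther away. The median strength of a shared promoter peak over all genes was 61 in replicate 1 and 102 in replicate 2. Both shared promoter peaks of Zfp608 were below this median in replicate 2, and 1 of 2 was so in replicate 1. At Zfp609 the upstream element was above it in both libraries, and the intronic one was below it in both.

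Further shared elements of Zfp608 stood just beyond the promoter window, and those at 1025 bp and 2465 bp were stronger than both promoter peaks in each library. The first, 1025 bp upstream and 25 bp outside the limit, had strengths of 76 and 111. The next ones followed at 1805 bp (46 and 76), 2465 bp (77 and 127) and 2845 bp (61 and 79). The annotation holds a further Zfp608 transcript, classed as subject to nonsense-mediated decay, that starts at 54992555, 2389 bp upstream of the coding start. The element of strength 77 and 127, at 54992556 to 54992705, begins at the base next to that start, and its midpoint lies 76 bp from it. The 1 kb around the upstream start had 45.4% GC and 30 CpG dinucleotides, an observed to expected ratio of 0.582. The antisense gene Gm4221 runs the other way from 54990265, 99 bp from the coding start, so that these upstream elements also lie inside Gm4221. DNase-seq does not tell which of these transcripts a site serves.

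**Figure D1:**
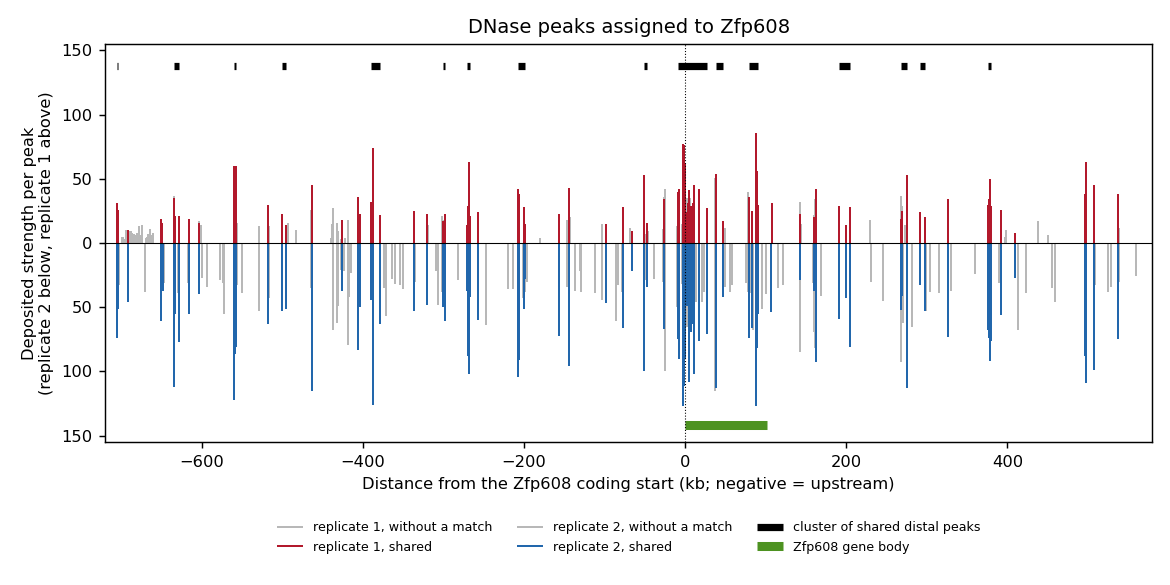
Strength of each peak assigned to Zfp608 against distance from its coding start in kb (negative is upstream), with replicate 1 above the axis and replicate 2 below it. Coloured lines are the 121 shared peaks, grey lines are peaks without a match, black bars are the 16 clusters of shared distal peaks and the green bar is the gene body of 102 kb. Shared peaks spread over both flanks, from 537 kb downstream to 705 kb upstream, and the low grey lines at the far left are the stretch seen in replicate 1.

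Zfp608 had 119 shared distal peaks, more than any other of the 21668 genes, as far as the assignment to the nearest coding start goes. Its interval, the stretch nearest to its starts, ran from 54426178 to 55695251 on chromosome 18 and measured 1.27 Mb, which made it the 197th largest. At the mean density over all genes, 2.46 shared distal peaks per 100 kb, this interval would hold 31.2, so that the count was 3.81 times that number. Of all genes, 44.0% exceeded the number given by their interval. Among the 168 genes with an interval within 20% of this size, the median was 9 shared distal peaks and the highest was 85. Zfp608 was first by this count in 8 of the 10 alternative settings, which recount the same libraries for a gene chosen by this count. The exceptions were replicate 1 alone, where it was the 4th and Robo1 led with 403 peaks, and the use of starts of all annotated genes, where noncoding neighbours took most of its sites and left it 5.

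Over all its peaks, the share of Zfp608 peaks that recurred in the other library was close to that of all genes. It was 40.3% of its 300 peaks in replicate 1 (95% Wilson interval 34.9% to 46.0%) and 40.8% of its 292 peaks in replicate 2 (35.3% to 46.5%), near the 41.1% and 38.5% of all genes. For distal peaks alone it was 119 of 298, or 39.9% (34.5% to 45.6%), in replicate 1 and 117 of 287, or 40.8% (35.2% to 46.5%), in replicate 2, where 36.3% and 34.2% of all distal peaks were shared. Zfp608 was chosen by its number of shared distal peaks, so that no difference from all genes is read from these shares. Outside a stretch described further below, the share in replicate 1 was 54.6%. That stretch was picked for its replicate 1 peaks without a match, so that leaving it out must raise the share. The Wilson intervals take each peak as independent of the others and hold no error beyond that of counting. Overlaps of matched pairs were 90 bp or more, and 27 peaks of replicate 1 overlapped a peak of replicate 2 by 70 bp or less and were not counted. The 119 shared distal peaks matched 116 distinct peaks of replicate 2, since some neighbouring peaks overlapped each other. Their median strengths were 25 and 56, a little under the 28 and 64 of all shared distal peaks, with highest values of 86 and 127. Across the 119 matched pairs, strengths in the libraries were correlated with a Pearson r of 0.873 and a Spearman rho of 0.876, beside 0.844 and 0.838 over all 62952 pairs. These pairs share the libraries and partly overlap each other. Replicate 2 had the higher value in 119 of 119 pairs, as it had in 99.7% of pairs over all genes.

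Density was highest in the gene itself. The 102 kb between the coding start and the end of Zfp608 held 21 shared distal peaks, 20.6 per 100 kb and 8.36 times the density over all genes. The upstream flank of 705 kb held 72, at 10.2 per 100 kb. The downstream flank of 462 kb held 26, at 5.63 per 100 kb. Both flanks were above the genome's density, by 4.15 and 2.29 times. Within 10 kb of the start there were 14 shared distal and 2 promoter peaks, out of 26 peaks in replicate 1 and 27 in replicate 2. None of the 119 lay in an exon of a coding transcript, 21 were intronic and 98 intergenic. In all, 70.6% lay more than 100 kb from the start, against 22.8% of all shared distal peaks, a share that the size of the interval bears on directly. The 118 gaps between neighbouring elements had a median of 2.78 kb, and 48 were at most 1 kb. The widest, 86.7 kb, lay downstream between 496 kb and 410 kb from the start.

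**Figure D2:**
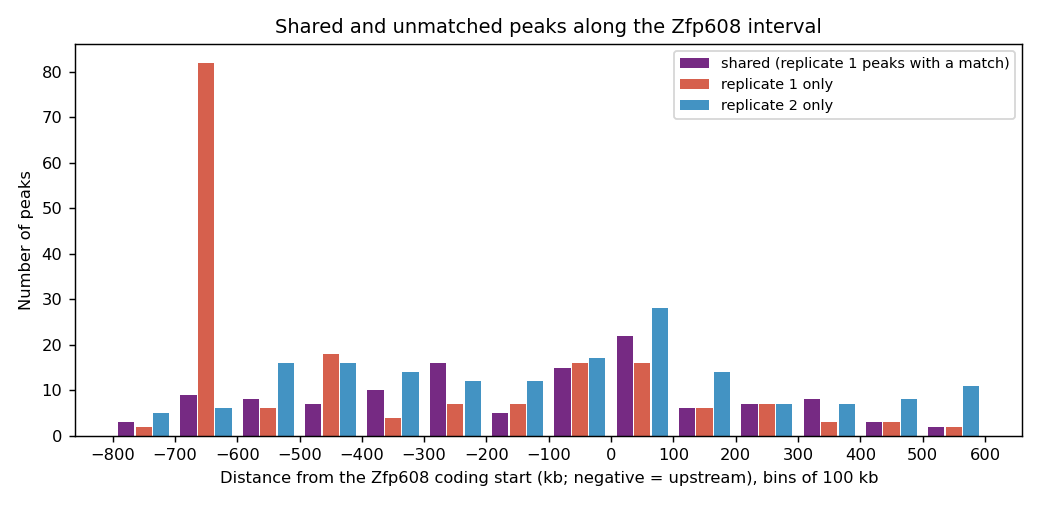
Number of shared, replicate 1 only and replicate 2 only peaks in bins of 100 kb along the Zfp608 interval, by distance from the coding start in kb. Shared peaks are found in every bin, with 22 in the first 100 kb downstream and 16 between 200 and 300 kb upstream, and the bin from -700 to -600 kb has 82 peaks of replicate 1 without a match.

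Noncoding genes overlapped 28 of the 119 elements, or 23.5%, beside 10.5% of all shared distal peaks. Gm4221, an antisense gene of 89.2 kb, overlapped 13. The intergenic long noncoding RNA genes AC115119.1, downstream, and Gm26742, inside an intron of Zfp608, overlapped 5 each. AC129179.2 overlapped 3, and AC147219.1 and Redrum 1 each. No coding gene other than Zfp608 overlapped any of them.

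Chaining shared distal peaks with gaps of at most 10 kb into groups of 3 or more gave 16 clusters, the highest number for any gene. These held 83 of the 119 peaks, or 69.7%, against 37.4% over all genes, and 36 stood outside them. Since chaining depends on density, the share follows in part from the count. The largest cluster surrounded the start, with 19 peaks from 54963416 to 54999505, reaching from 26.7 kb inside the gene to 9.27 kb upstream. Their median strengths were 31 and 71. It also held 10 peaks of replicate 1 and 16 of replicate 2 without a match.

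The next cluster by number lay far upstream. From 55257096 to 55261425, 267 to 271 kb from the start and outside any annotated gene, 10 shared peaks filled 4.33 kb, and neither library had an unmatched peak there. The replicate 1 peaks at 55259456 and 55259556 matched the same replicate 2 peak, as did those at 55261216 and 55261276. The 10 peaks thus count some sites more than once. Their median strengths were 15.5 and 35, with a highest element of 63 and 102, so that this was a dense group of mostly weak sites. The cluster at 557 to 560 kb upstream, from 55547316 to 55550465, was the opposite: 5 peaks with median strengths of 43 and 81, and none below 26 and 72. A wide hotspot covered part of it in both libraries, 2243 bp in replicate 1 and 2575 bp in replicate 2.

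Of the other clusters with 6 peaks, one lay inside the gene at 78.7 to 90 kb, from 54900096 to 54911525, with medians of 39.5 and 70. Another lay downstream at 376 to 379 kb, from 54611016 to 54613825, partly in AC115119.1, with medians of 30 and 71. The third lay at 199 to 208 kb upstream, from 55188716 to 55198065, with medians of 26 and 53. A cluster of 4 stood at 379 to 390 kb upstream. The remaining 9 clusters had 3 peaks each. Downstream these lay at 291 to 298 kb, 268 to 275 kb, 191 to 204 kb and, inside the gene, 38 to 47.0 kb. Upstream they lay at 47.2 to 51.4 kb, 298 to 301 kb, 495 to 501 kb, 629 to 634 kb and 704 to 705 kb.

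The 10 strongest shared distal elements were spread over the whole interval. The first lay in a Zfp608 intron at chr18:54902296-54902445, 87.8 kb downstream of the start, with strengths of 86 and 127, in the top 3.50% and 2.75% of the libraries. The element at the upstream start described above was next. The third, at 55377796 to 55377945, lay 388 kb upstream with strengths of 74 and 126. The element 1025 bp upstream followed it. Next came the sites at 55549796 to 55549945, 560 kb upstream (60 and 122), and at 54492796 to 54492945, 497 kb downstream (63 and 109). The site at 55258736 to 55258885 in the dense upstream group, 269 kb from the start, had 63 and 102. An intronic site at 54952056 to 54952205, 38 kb downstream, had 54 and 113. The last ones were 275 kb downstream at 54714596 to 54714745 (53 and 113) and 50.6 kb upstream at 55040696 to 55040845 (53 and 100). All 10 were thus within the strongest 11% of peaks in each library, at distances from 1.03 kb to 560 kb.

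Some strong peaks of Zfp608 had no match by the 75 bp rule. In replicate 2 the strongest had strengths of 115, 105 and 100. The first of these, 37.6 kb inside the gene, overlapped by 70 bp the strongest unmatched peak of replicate 1, which had a strength of 51. The third, 25.5 kb upstream, overlapped a replicate 1 peak of strength 36 by 50 bp. The second, 88.2 kb inside the gene and next to the strongest element, overlapped none. In replicate 1 the other unmatched peaks had strengths of 45, 11.5 kb inside the gene and with no overlap, and 42, 25.4 kb upstream and with an overlap of 10 bp. The strongest unmatched peaks thus include a pair that overlapped by 70 bp, just under the limit of 75 bp. The others overlapped by 50 bp or less or not at all.

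A long stretch at the upstream end was seen mainly in replicate 1. It was picked as the Zfp608 chain with the most unmatched replicate 1 peaks, at gaps of at most 10 kb. Its high number of unmatched replicate 1 peaks thus follows from that choice. From 55649996 to 55694365, 660 to 704 kb upstream, replicate 1 had 82 peaks over 44.4 kb, of which 80 had no match. Their strengths ran from 1 to 26 with a median of 5. Replicate 2 had 7 peaks there, with strengths of 28 to 51. Hotspots covered 21.3 kb of the stretch in replicate 1 and 1.61 kb in replicate 2. This stretch held 27.3% of the Zfp608 peaks of replicate 1 and 44.7% of its peaks without a match. Outside it, 54.6% of the replicate 1 peaks were shared, a share that leaving out peaks picked as unmatched must raise. The count of shared distal peaks without it was 117. In bins of 50 kb over the genome, chosen after the stretch had been seen, its bin had the 8th highest number of unmatched replicate 1 peaks of 52685. Such bins, with 30 or more unmatched peaks, numbered 559 in replicate 1 and 12 in replicate 2. Median GC content of the replicate 1 peaks in the stretch was 40.7%. The part of base composition or depth in it was not tested.

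Hotspots were set beside those of all genes. Zfp608 had 238 hotspots in each library, and 108 of replicate 1 (45.4%) and 100 of replicate 2 (42.0%) overlapped the other library by 75 bp or more, near the 47.0% and 41.4% of all genes. They covered 82.6 kb and 88.9 kb, which is 6.51% and 7.01% of the interval, where hotspots covered 2.30% and 2.61% over all genes. Of these lengths, 21.3 kb in replicate 1 and 1.61 kb in replicate 2 lay in the stretch described above. The near-equal totals are thus not the same DNA in both libraries. The deposited −log10 q reached its ceiling of 100 in 52 and 66 of them. The widest in replicate 1 lay inside the gene from 54985335 to 54989105 (3771 bp), and in replicate 2 it lay 161 kb downstream from 54827938 to 54830530 (2593 bp). Zfp609 had 11 and 12 hotspots, with 3 shared in each, over 4.87 kb and 4.14 kb.

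The 119 elements were slightly poorer in GC than other shared distal peaks, with medians of 46.0% and 50%, and had a like share of repeat sequence, 10.5% and 10.9% on average. The median observed to expected CpG ratio was 0.244, beside 0.275. A set of 14 short motifs was searched on both strands. E-boxes (CANNTG) were in 80 of the 119, or 67.2%, and in 62.4% of all 62952 shared distal peaks. The Twist-type E-box CAGATGG, a form bound by the mesenchymal factor Twist1 and counted among the E-boxes too, was in 14, or 11.8%, beside 6.41%. The MEIS core TGACAG, bound by TALE homeodomain proteins, was in 19, or 16.0%, beside 10.9%. The forkhead motif TGTTTAC was in 5, or 4.20%, beside 2.07%, and the AP-1 motif TGANTCA was in 7, or 5.88%, beside 4.40%.

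The other 9 motifs had a lower share in Zfp608, apart from ETS and NFI. The AP-2 motif GCCNNNGGC was in 3 elements, or 2.52%, beside 6.26% of all, and the GC-rich Sp or KLF motif CCGCCC in 6, or 5.04%, beside 9.15%. The homeodomain core TAATTA was in 2, or 1.68%, beside 3.74%. TEAD (GGAATG) was in 9, or 7.56%, beside 10.5%, SOX or TCF (ACAAAG) in 12, or 10.1%, beside 13.3%, and the nuclear receptor core AGGTCA in 10, or 8.40%, beside 8.89%. ETS (CCGGAAG) was in 3, or 2.52%, beside 1.39%, and the paired NFI motif in 1, beside 0.133% of all. The CTCF core searched was in 0 of 119, a count that allows a share of up to 2.52%, beside 0.888% of all. Neither base composition nor overlap between neighbouring peaks was taken out of these shares, and a match is not a bound site.

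**Figure D3:**
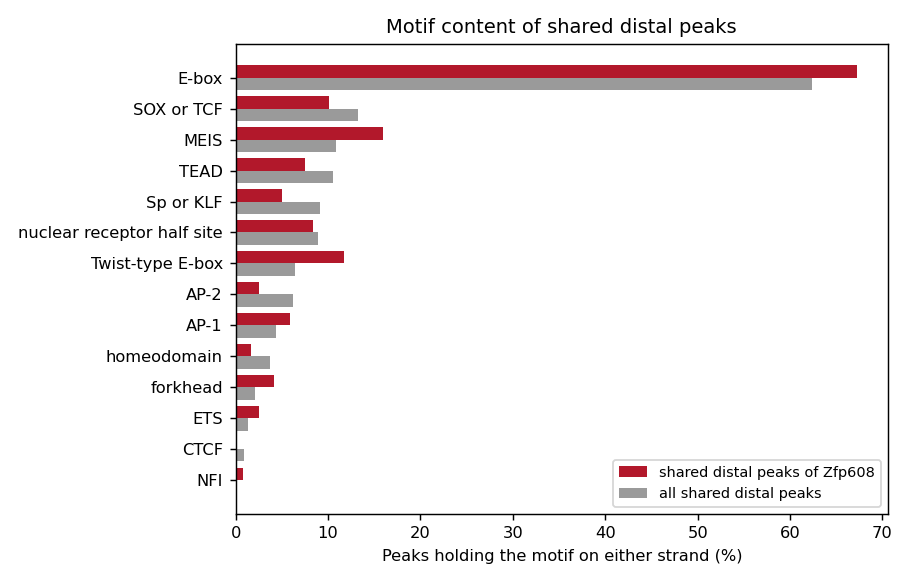
Percentage of shared distal peaks holding each of the 14 motifs on either strand, for the 119 peaks of Zfp608 (red) and all 62952 (grey). The Twist-type E-box is in 11.8% against 6.41% and the MEIS core in 16.0% against 10.9%, while AP-2 is in 2.52% against 6.26%. No error is drawn because the peaks are not replicates.

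Zfp609 had 2 shared distal peaks in an interval of 104 kb, from 65752078 to 65856309 on chromosome 9, where the density over all genes gives 2.56, a ratio of 0.780. This ratio fell on both sides of 1 under the alternative settings, from 0.429 with a promoter window of 2500 bp to 1.98 with replicate 1 alone, so that no direction is read from it. Of the 2087 genes with an interval within 20% of this size, 1062 had more and 688 had fewer, with a median of 3. Both peaks lay upstream, in Trip4, a coactivator gene that ends on the same strand just before Zfp609 starts. One, at 65829556 to 65829705, lay over the last part of Trip4, 2067 bp from the Zfp609 start and exonic, with strengths of 44 and 71. The other, the intronic element shown above, lay 22.8 kb away with strengths of 15 and 50. The nearest Trip4 start is 57.5 kb from that of Zfp609, and 0 shared distal peaks were assigned to Trip4.

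The body of Zfp609 was nearly free of shared sites. Over all 135.2 kb, 12 peaks of replicate 1 and 19 of replicate 2 included 2 shared ones. These were the intronic promoter element and 1 site deeper in the gene. The latter is closer to the start of Oaz2, which encodes an ornithine decarboxylase antizyme. That makes 0.740 shared peaks per 100 kb beyond the promoter, a density that rests on 1 peak. The density of shared distal peaks was 2.46 per 100 kb over all genes and 20.6 in the body of Zfp608. Strengths were read only for peaks assigned to Zfp609, which in the body means the 75.5 kb nearest to its start. Unmatched peaks there lay at different distances in the libraries, and most ranked below the median of their own library. Replicate 1 had 6 between 5.81 kb and 8.99 kb from the start, with strengths of 4 to 7 where the median of the library is 16. Replicate 2 had 7 between 27.5 kb and 50.8 kb, with strengths of 22 to 38 where the median is 42, and 1 of strength 34 at 3.65 kb. Exceptions lay close to the start: 1173 bp downstream, a replicate 2 peak of strength 56 overlapped replicate 1 peaks of 26 and 27 by 50 bp each. Of the 18 peaks of replicate 1, 22.2% were shared (95% Wilson interval 9.00% to 45.2%), and of the 16 of replicate 2, 25% (10.2% to 49.5%). For distal peaks alone it was 2 of 14, or 14.3%, in replicate 1 and 2 of 13, or 15.4%, in replicate 2. Of all distal peaks, 36.3% and 34.2% were shared. The Wilson intervals hold the 41.1% and 38.5% of all genes, but they take each peak as independent. No difference is read from so few peaks of a gene chosen by its shared distal peaks.

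**Figure D4:**
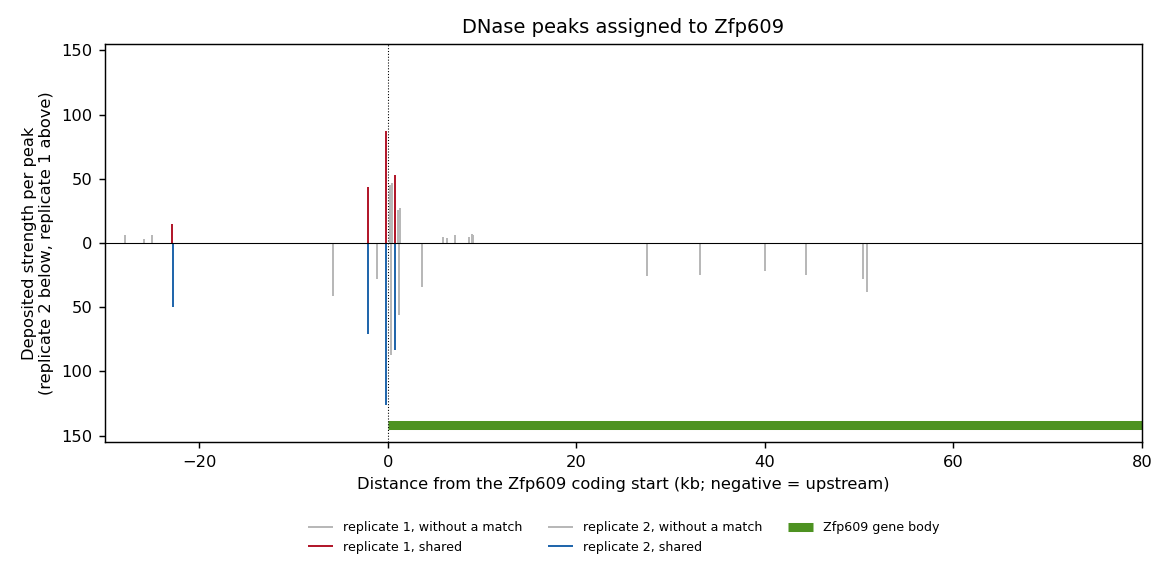
Strength of each peak assigned to Zfp609 against distance from its start in kb (negative is upstream), with replicate 1 above the axis and replicate 2 below it. Coloured lines are the 4 shared peaks, of which 2 lie within 1 kb of the start, grey lines are peaks without a match, and the green bar is the gene body within the 104 kb interval.

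Zfp608 stands between distant coding neighbours. On the downstream side the start of Csnk1g3, a casein kinase gene, is 1128 kb away, and on the upstream side that of Gramd3 is 1410 kb away. Assignment to the nearest start cuts each of these gaps at its midpoint, so that both sides can be set against each other over equal lengths. Between Zfp608 and Csnk1g3 the side of Zfp608 held 47 shared distal peaks and the other 19. Between Zfp608 and Gramd3 these numbers were 72 and 30. Zfp608 was chosen by its count of shared distal peaks, so that the higher numbers on its side follow in part from that choice. The upstream end was not a gap in the map: the last cluster of Zfp608 had 3 shared peaks within 10 kb of the midpoint, and 4 more lay within 10 kb beyond it, the nearest 220 bp away with strengths of 31 and 60. On the downstream side no shared distal peak lay within 10 kb of the midpoint on either side. Csnk1g3 and Gramd3 had 19 and 31 shared distal peaks in all, 1.24 and 1.57 times the number given by their intervals.

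The genes nearest to Zfp608 in interval size and number of shared distal peaks, measured as distance on both log2 axes, were Nr2f2, Zfhx3, Auts2, Sox11 and Sox9. They had 85, 84, 75, 57 and 51 shared distal peaks in intervals of 1304, 1339, 1928, 1040 and 1250 kb. Their ratios to the number given by the interval ranged from 1.58 in Auts2 to 2.65 in Nr2f2, all under the 3.81 of Zfp608. This follows in part from its having the highest count of all genes. The ratio itself was not exceptional in this tissue. Among the facial mesenchyme markers it was 2.81 in Prrx1, 3.84 in Tfap2a, 4.31 in Twist1, 5.28 in Alx4, 5.90 in Msx1 and 11.4 in Dlx5, all in smaller intervals. Zfp609 had many close matches, of which Plac8l1, Skp2, Panx1, Trpc1 and C7 were nearest, each with 2 shared distal peaks in 104 to 105 kb.

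Other families of zinc finger regulators were counted in the same way. Among the Zfhx genes, which encode zinc finger homeobox proteins, Zfhx3 had 84 shared distal peaks, Zfhx4 had 19 and Zfhx2 had 4. Relative to interval size the order changed, with ratios of 4.10 in Zfhx2, 2.55 in Zfhx3 and 0.791 in Zfhx4. Among the teashirt genes, Tshz3 had 26, Tshz1 had 11 and Tshz2 had 10, with ratios of 1.07, 0.762 and 1.49. With 1 count per gene and 2 libraries these orders have no test. Zfhx2 rests on a count of 4 in 39.7 kb.

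**Figure D5:**
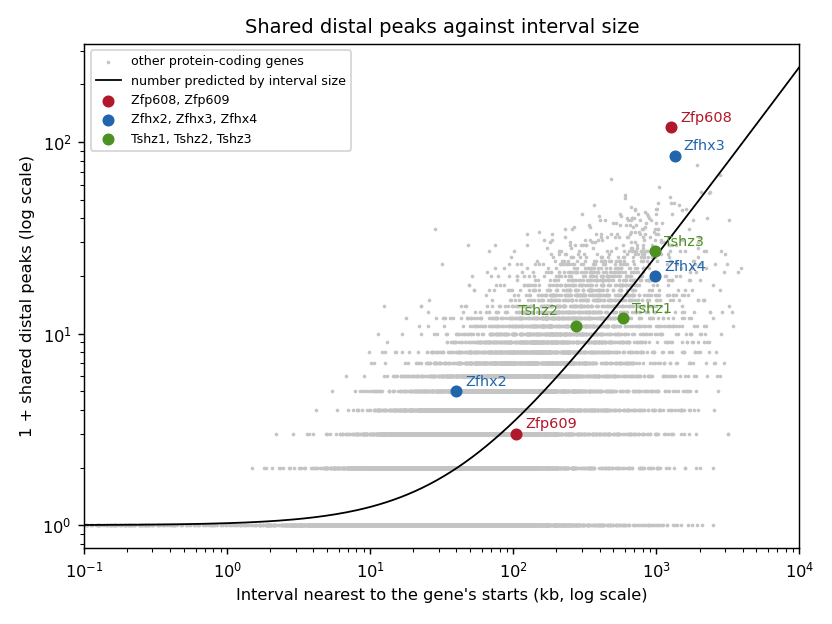
Shared distal peaks plus 1 against interval size in kb for the protein-coding genes, both on log scales, with the line giving the number expected from the mean density. Zfp608 (119 peaks, 1269 kb) is the highest point, Zfp609 (2 peaks, 104 kb) is near the line, and the Zfhx and Tshz genes lie on both sides of it.

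Genes of the described partners and targets were open mostly at their promoters. All 14 Integrator subunit genes (Ints1 to Ints14) had a shared promoter peak of replicate 1, both cohesin loader genes (Nipbl and Mau2) did, and so did all 5 cohesin genes (Smc1a, Smc3, Rad21, Stag1 and Stag2). For Ints9 and Ints13 the matching peak of replicate 2 was not itself a promoter peak of the gene, so that 12 of 14 had promoter peaks in replicate 2. Rag1 and Rag2 had none, so that 21 of 23 had one, against 61.1% of all genes. Rag1 had 2 promoter peaks in replicate 1 and 1 in replicate 2 that did not match, and Rag2 had 0 in both. Shared distal peaks numbered 0 to 4 for the Integrator genes, with 6 of 14 having any, and 0 to 4 for the cohesin genes. Of all genes, 62.7% had any, with a median of 1. Nipbl had 4 shared promoter peaks and 7 distal ones, the highest in the list, and Mau2 had 1 and 0. Over the whole list 11 of 23 genes had a shared distal peak, with a median of 0, where Zfp609 had 2. Counts this low are common over all genes, and interval size was not taken into account for the list. No gene of the list came near the 119 of Zfp608.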

How the data were processed

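The authors deposited 1 peak file and 1 hotspot file per library, on build mm10 per the labels. The deposited peak value (signal, here strength) is a whole number from 1 to 149 on the chromosomes used, and the deposited hotspot value is a −log10 q capped at 100. The aligner, the caller and what the signal counts: not given in the sources used here. Chromosomes 1 to 19 and X were used. Gene starts came from the protein-coding transcripts of the GENCODE M21 basic set, 41135 starts of 21668 genes. Peaks were matched at 75 bp, assigned by midpoint, and chained at gaps of at most 10 kb.

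The genes, the marker and partner lists and the motifs were chosen with earlier results of these data known. Named one by one were every promoter peak, the 10 shared distal peaks with the best mean rank, the edges of each cluster, the 3 strongest unmatched distal peaks per library, the coding neighbours, the 5 most alike genes, and the Zfhx, Tshz, partner and marker genes. The Zfp609 peaks further into the gene, the Zfp608 peaks 1805 and 2845 bp upstream, Robo1 and the stretch of replicate 1 were named after their values were seen. No test across samples was possible with 1 group, and the p and q columns of the peak files were not used. Scripts ran in Python 3.11.15 with pandas 2.3.3, numpy 2.4.6, scipy 1.17.1 and pysam 0.24.0, and were tested on simulated intervals.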

Additional observations from a re-analysis of the deposited data

How the results depend on the processing

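Of 74 values recomputed under alternatives, 39 moved by less than the spread between libraries or, for counts, by at most 1.5 times. Those that moved were as follows. With an overlap of at least 90% of the width, Zfp608 had 25 shared distal peaks, 0 shared promoter peaks and a ratio of 2.57, and Zfp609 had 1, 1 and 1.25. With 1 bp, Zfp609 had 4 distal and 4 promoter peaks, a ratio of 1.30 and 1 cluster. With the 50000 strongest peaks of each library, Zfp608 had 34 distal peaks, 3 clusters and a ratio of 3.27, and Zfp609 had 1 and 1.17. With 1 library at a time, all peaks counted: Zfp608 had 287 to 298 distal and 2 to 5 promoter peaks and a ratio of 3.22 to 3.46, and Zfp609 had 13 to 14, 3 to 4 and 1.77 to 1.98. A promoter window of 2500 bp gave Zfp608 6 promoter peaks and a ratio of 4.05, and Zfp609 1 distal peak and 0.429. Starts of all annotated genes, noncoding ones included, left Zfp608 5 distal peaks, 1 promoter peak and a ratio of 48.6, since its interval shrank more than its count, and Zfp609 1 distal peak and 0.540. A deposited −log10 q of at least 10 left Zfp608 25 shared hotspots. Zfp609's ratio thus fell on either side of 1 and that of Zfp608 was above 2.5 under all of these. The comprehensive transcript set and leaving out the replicate 1 stretch were alternatives chosen after seeing the data and moved none of these values by as much. No paired analysis was possible because the libraries form 1 group. Depth is unknown, strength has no stated scale, and nearest starts need not be the genes a site regulates.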
